A study of Arabidopsis thaliana with 6 samples.

Results

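The 9 nuclear genes described here promote chloroplast formation or carry signals between plastid and nucleus and were measured by RNA-seq in Arabidopsis thaliana plants of the fbn6-1 mutant and of wild type. They were taken by locus identifier, 9 of the 36917 genes listed in the deposited count files, and all 9 had enough counts to be tested, as had 16584 genes in all. FBN6 encodes FIBRILLIN6, a fibrillin from a family of lipid-associated proteins of the plastid. The mutant group was 3 libraries of fbn6-1 (replicates 1, 2 and 3), a T-DNA insertion line named GK_159E10 in the Col-0 background, and the comparison group was 3 libraries of the Col-0 ecotype without the insertion (replicates 2, 3 and 4). Plants of both groups were sampled at an age of 3 weeks after growth on soil in days of 16 h light and 8 h dark, at a fluence of about 120 µmol photons per square metre each second. The labels name no cadmium or light stress for these libraries, and the mutant is a single insertion line. Nothing in the labels says that the replicates came from separate plants; p-values here therefore cover the spread among these 6 libraries, part of which may be technical.

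GLK1 and GLK2 are GARP-family transcription factors that act largely redundantly and switch on nuclear genes for chlorophyll synthesis and light harvesting. GNC and CGA1 are B-class GATA factors that promote greening and respond to cytokinin and nitrate. GUN1 is a plastid pentatricopeptide repeat protein through which several plastid signals reach the nucleus, EX1 and EX2 are plastid proteins needed for the nuclear response to singlet oxygen, and STN7 and STN8 are thylakoid kinases that phosphorylate the light-harvesting antenna and the photosystem II core.

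GLK1 (AT2G20570) lies at chr2:8855302-8857758 on the plus strand of TAIR10.1, and GLK2 (AT5G44190) at chr5:17798262-17800926 on the plus strand. The 250 bases before the annotated start of each are printed here, because GLK1 was the gene of the 9 that differed between the genotypes and GLK2 is its closest relative. The windows are chr2:8855052-8855301 and chr5:17798012-17798261, read from the RefSeq TAIR10.1 assembly 5′ to 3′.
GLK1: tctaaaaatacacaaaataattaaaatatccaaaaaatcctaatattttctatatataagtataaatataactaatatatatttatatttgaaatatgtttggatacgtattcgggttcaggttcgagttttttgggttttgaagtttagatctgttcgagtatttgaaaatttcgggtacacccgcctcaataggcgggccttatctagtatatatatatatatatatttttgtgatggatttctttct
GLK2: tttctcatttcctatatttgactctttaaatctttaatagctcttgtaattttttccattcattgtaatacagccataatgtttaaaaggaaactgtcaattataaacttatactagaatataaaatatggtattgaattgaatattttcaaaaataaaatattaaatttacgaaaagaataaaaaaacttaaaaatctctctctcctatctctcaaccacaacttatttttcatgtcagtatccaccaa
Neither window holds CCAATC, a hexamer known from promoters of GLK targets, or CACGTG, the G-box, on either strand, so no base is in capitals. The hexamer contains the letters of the CCAAT box. These letters are found in 10.2% (CCAATC) and 6.49% (CACGTG) of such windows before 27443 protein-coding genes. Of the 9 genes, EX2 and STN8 hold CCAATC on the strand opposite to the gene, so that it reads GATTGG along the gene, with its base nearest the start 54 and 62 bases before it, and 0 hold CACGTG; the windows of EX2 and STN8 also take in exon bases of neighbouring genes. The longest run of bases shared by GLK1 and GLK2 transcripts is 24 bases of coding sequence, at chr2:8856404-8856427 in GLK1, shown because it bears on whether reads of these paralogues could be confused.
shared run: tctcactcgtcacaacgttgctag
The longest runs shared within the other pairs are 25 bases for GNC and CGA1, 14 bases for EX1 and EX2 and 10 bases for STN7 and STN8.

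The mutation was seen in the counts of the targeted gene. FBN6 had 7, 3 and 3 counts in fbn6-1 and 1845, 1557 and 2201 counts in wild type. FBN6 shares 181 bases with AT5G19950 on the opposite strand, whose reads cannot be told apart from its own there; AT5G19950 had 23, 22 and 17 counts in fbn6-1 and 82, 85 and 98 counts in wild type (log2 fold change -2.20, edgeR adjusted p = 3.57e-05). Library totals lay between 8668956 and 12287197 counts, of which plastid and mitochondrial genes took 59.7 to 62.4% in fbn6-1 and 59.9 to 62.5% in wild type, leaving 3257770 to 4955128 nuclear counts. Wild-type replicate 3 resembled its group least, with a mean Pearson correlation of log2 CPM of 0.969 to the other libraries of the group, against 0.976 to 0.985 for the other 5 libraries. The labels name the tissue only as plants. The 5 root markers summed to 1.35 to 1.49 CPM (counts scaled to a common library size) in fbn6-1 and 0.0879 to 0.958 CPM in wild type. EXPA7 and CASP1 were at 0 in all 6 libraries, and most of the fbn6-1 sum was PYK10 (mean 0.907 CPM, against 0.109 CPM in wild type). The 5 flower markers summed to 0.751 to 0.958 CPM in fbn6-1 and 1.08 to 1.36 CPM in wild type, with AP3 at 0 in all 6. The 4 senescence markers summed to 47.3 to 68.1 CPM in fbn6-1 and 29.4 to 60.7 CPM in wild type, with SAG12 at 0 in all 6. Most of this sum was SAG21, with means of 47.8 CPM in fbn6-1 and 31.5 CPM in wild type. SGR1 had 7.42 and 8.23 CPM and SAG13 0.0757 and 0.203 CPM, both lower in fbn6-1.

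Of the 9 genes, GLK1 fell in fbn6-1 and the other 8 were not called. A call is an adjusted p under 0.05 in edgeR's quasi-likelihood test with Benjamini-Hochberg adjustment over all tested genes, and 2.34% of those genes were called lower, 1.48% higher and 3.82% in either direction. The 9 genes held 1 lower and 0 higher calls, as they did with DESeq2, and at an unadjusted p under 0.05 in the edgeR test 2 were lower (GLK1 and GLK2) and 0 higher, where 9.80% and 8.04% of all tested genes were lower and higher at that p. Of the 9 log2 fold changes 3 lay below 0 and 6 above, with a median of 0.12, against a median of 0.00 over all tested genes. Values of the groups did not overlap for GLK1, GLK2 and STN7, lower in fbn6-1, and for GUN1, higher in fbn6-1, where 12.1% and 10.9% of all tested genes had such groups, 23.0% in either direction.

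**Figure D1:**
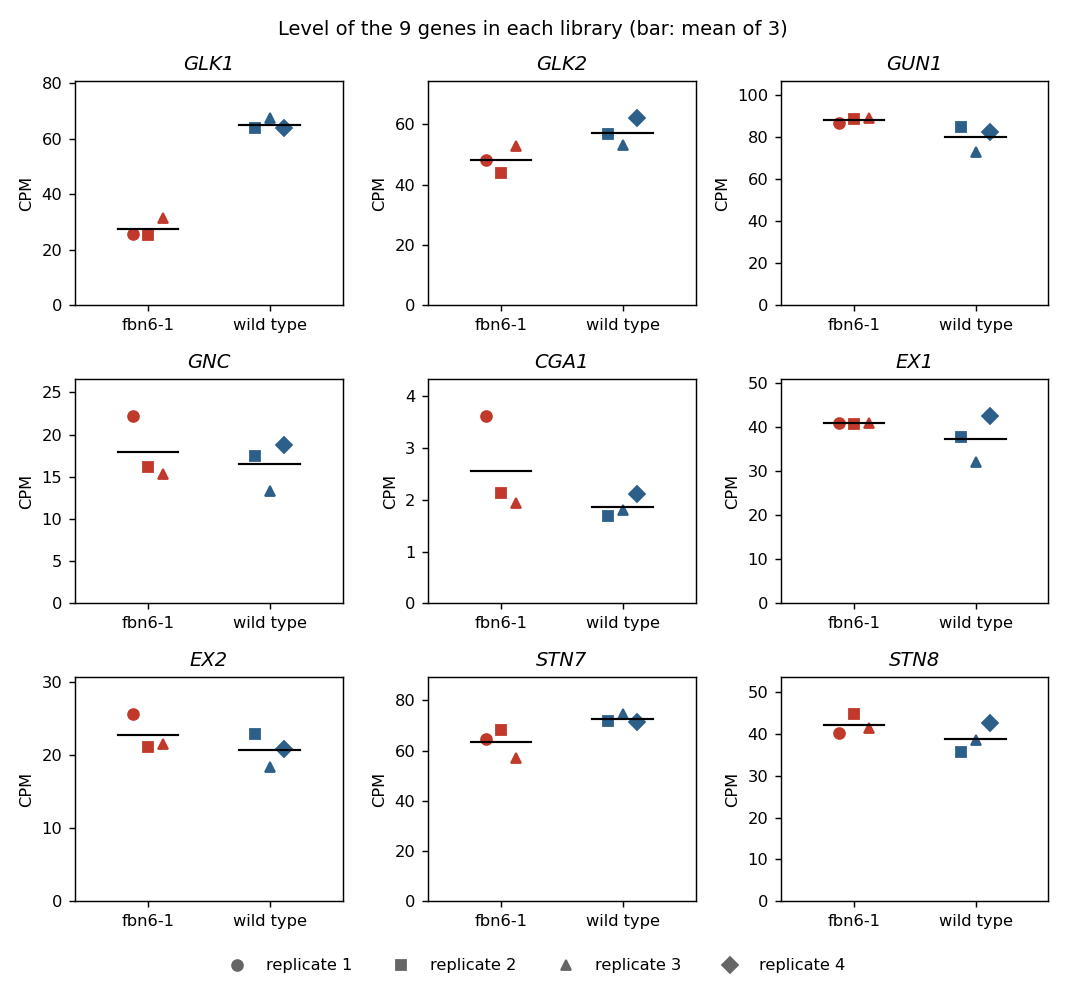
Level of each of the 9 genes in CPM (scaled counts, vertical axis from 0) in the 3 fbn6-1 libraries (red) and the 3 wild-type libraries (blue); symbols mark the replicate number and bars the mean of 3. The GLK1 points lie between 25.4 and 31.4 CPM in fbn6-1 and between 63.7 and 67.3 CPM in wild type, while the points of GNC, CGA1, EX1, EX2 and STN8 overlap between the genotypes.

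GLK1 counts were 344, 239 and 276 in fbn6-1 and 610, 562 and 725 in wild type. Scaled to library size these were 25.8, 25.4 and 31.4 CPM in fbn6-1, against 63.9, 67.3 and 63.7 CPM in wild type. The highest mutant library, replicate 3, still held less than every wild-type library. GLK1 averaged 27.5 ± 3.31 CPM in fbn6-1 and 65.0 ± 2.02 CPM in wild type (SD, n = 3 each), so that the mutant level was 42.4% of wild type. The log2 fold change was -1.24 (SE 0.11, 95% interval -1.48 to -1.0, adjusted p = 2.09e-05, edgeR quasi-likelihood test), a level 2.36-fold lower in fbn6-1. By p-value GLK1 ranked 18th of the 16584 tested genes, and by fold change it was the 72nd of the 388 genes called lower. The call was kept under all 12 alternative settings, with log2 fold changes between -1.34 and -1.11. These are bulk samples, in which fewer cells that express GLK1 and less GLK1 RNA per cell cannot be told apart. The 5 leaf markers RBCS1A, RCA, SBPASE, PSBO1 and CA1, genes of photosynthetic tissue, summed to 14781 to 16087 CPM in fbn6-1 and 18194 to 18896 CPM in wild type. Each of the 5 was lower in every mutant library than in any wild-type library, as were 12.1% of all tested genes. Their log2 fold changes were -0.34 to -0.22. In the edgeR test 0 of 5 were called, where 2.34% of all tested genes were called lower. All 5 had an unadjusted p under 0.05, where 9.80% of all tested genes were lower at that p. The part of these markers in the GLK1 difference was not tested.

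GLK2 was not called. It had 48.2, 43.8 and 52.7 CPM in fbn6-1 and 56.7, 53.1 and 62.0 CPM in wild type. The groups did not overlap, but mutant replicate 3 and wild-type replicate 3 lay close together. Its mean was 48.2 ± 4.48 CPM in fbn6-1 and 57.2 ± 4.48 CPM in wild type (SD, n = 3 each). The log2 fold change of -0.25 (SE 0.11, 95% interval -0.48 to -0.02) had an unadjusted p of 0.0378 and an adjusted p of 0.245 in the edgeR quasi-likelihood test.

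Because a ratio within a library needs no scaling between libraries, the balance of the paralogues was also compared as a share of counts. GLK1 made up 34.9, 36.8 and 37.3% of the counts of GLK1 plus GLK2 in fbn6-1, against 53.0, 55.9 and 50.7% in wild type. GLK2 thus held the larger share in all 3 mutant libraries and GLK1 in all 3 wild-type libraries. The exact 95% counting intervals, which cover counting error only, spanned 31.9 to 40.9% over the mutant libraries and 48.1 to 59.0% over the wild-type libraries. In wild-type replicate 4 the interval of 48.1 to 53.3% took in an even split, so the larger share of GLK1 there was within counting error. The mean share was 36.3 ± 1.27% in fbn6-1 and 53.2 ± 2.62% in wild type (SD, n = 3 each), a difference of -16.9 percentage points. A two-sided exact permutation test gave p = 0.1, the smallest that 3 against 3 libraries allow, and 0.2 after Benjamini-Hochberg adjustment over the 4 pairs compared. The design therefore cannot place any of these shares under 0.05.

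**Figure D2:**
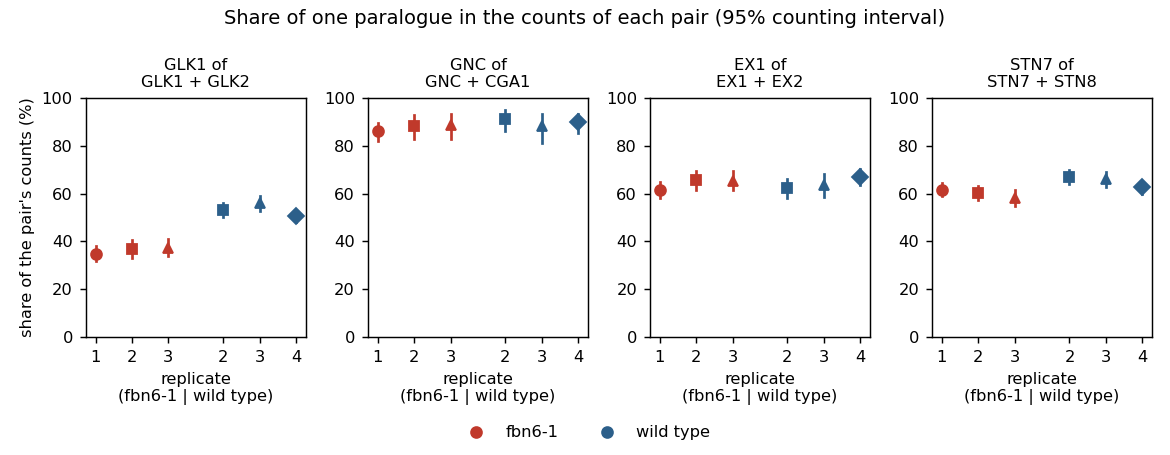
Share of the first-named gene in the counts of each pair of paralogues (percent, vertical axis from 0 to 100) in each library, by replicate number, fbn6-1 (red) left of wild type (blue); lines are exact 95% counting intervals. The GLK1 share lies at 34.9 to 37.3% in fbn6-1 and 50.7 to 55.9% in wild type, and the EX1 share overlaps between the genotypes.

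The GATA factors were not called in either direction. GNC (AT5G56860, chr5:22989216-22991530, minus strand) had 22.1, 16.2 and 15.3 CPM in fbn6-1 and 17.5, 13.3 and 18.8 CPM in wild type. The highest value was that of mutant replicate 1 and the lowest that of wild-type replicate 3, and the groups overlapped. GNC averaged 17.9 ± 3.71 CPM in fbn6-1 and 16.5 ± 2.88 CPM in wild type (SD, n = 3 each), and its log2 fold change was 0.12 (SE 0.17, 95% interval -0.24 to 0.47, edgeR adjusted p = 0.781). Its sign depended on single libraries: the log2 fold change was -0.08 without mutant replicate 1 and -0.01 without wild-type replicate 3.

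CGA1 (AT4G26150, chr4:13253084-13255106, plus strand), the paralogue of GNC also known as GNL, was the least abundant of the 9. It had 48, 20 and 17 counts in fbn6-1 and 16, 15 and 24 counts in wild type, which is 3.60, 2.13 and 1.93 CPM in fbn6-1 and 1.68, 1.80 and 2.11 CPM in wild type. Mutant replicate 1 stood above the other 5 libraries, which lay together. The log2 fold change was 0.49 (SE 0.31, 95% interval -0.19 to 1.16, edgeR adjusted p = 0.462), an interval that takes in a 2-fold higher level in fbn6-1. Without mutant replicate 1 it was 0.12. GNC made up 86.0, 88.4 and 88.8% of the counts of the pair in fbn6-1 and 91.3, 88.1 and 89.9% in wild type, a difference of -2.02 points (two-sided exact permutation p = 0.3, 0.4 after adjustment).

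GUN1 (AT2G31400, chr2:13386954-13390854, minus strand) had 86.7, 88.6 and 88.8 CPM in fbn6-1 and 84.8, 72.8 and 82.5 CPM in wild type. The mutant libraries were nearly equal and all lay above the wild-type ones, of which replicate 3 was the lowest. GUN1 averaged 88.0 ± 1.16 CPM in fbn6-1 and 80.0 ± 6.35 CPM in wild type (SD, n = 3 each). The log2 fold change of 0.14 (SE 0.10, 95% interval -0.07 to 0.35, edgeR adjusted p = 0.521) was not called, and the upper end of its interval is a 1.27-fold higher level in fbn6-1. Without wild-type replicate 3 it was 0.07.

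EX1 (AT4G33630, chr4:16155292-16159578, plus strand) had 40.9, 40.6 and 40.9 CPM in fbn6-1 and 37.7, 32.0 and 42.4 CPM in wild type. The mutant values lay inside the wild-type range. The log2 fold change was 0.12 (SE 0.12, 95% interval -0.12 to 0.37, edgeR adjusted p = 0.647), and it was 0.02 without wild-type replicate 3 and 0.22 without wild-type replicate 4. Among the 9, EX1 and STN8 overlap other annotated genes. EX1 overlaps AT4G08795 by 346 bases and AT4G33640 by 31 bases on the opposite strand; those genes had log2 fold changes of 0.18 and 0.05 and were not called. Whether strand was used in counting is not given in the sources used here, so their reads cannot be told apart from those of EX1 in the overlaps. The 346 bases are the whole exon length of AT4G08795, so its fold change may come from the same reads as that of EX1. EX2 (AT1G27510, chr1:9554710-9558461, minus strand) had 25.6, 21.2 and 21.6 CPM in fbn6-1 and 22.9, 18.4 and 20.8 CPM in wild type, and the groups overlapped. Its log2 fold change was 0.14 (SE 0.13, 95% interval -0.13 to 0.41, edgeR adjusted p = 0.637), and it was 0.04 without mutant replicate 1, 0.07 without wild-type replicate 3 and 0.21 without wild-type replicate 2. The EX1 share of the pair was 64.2 ± 2.35% in fbn6-1 and 64.2 ± 2.53% in wild type (SD, n = 3 each; two-sided exact permutation p = 1).

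The kinase genes lay on different sides of 0. STN7 (AT1G68830, chr1:25872412-25875662, minus strand), whose kinase phosphorylates the antenna of photosystem II in state transitions, had 64.7, 68.0 and 57.1 CPM in fbn6-1 and 71.9, 74.4 and 71.3 CPM in wild type. Every mutant library lay below every wild-type library. STN7 averaged 63.3 ± 5.58 CPM in fbn6-1 and 72.5 ± 1.65 CPM in wild type (SD, n = 3 each), and its log2 fold change of -0.20 (SE 0.10, 95% interval -0.41 to 0.02, edgeR adjusted p = 0.340) was not called; it was -0.12 without mutant replicate 3.

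STN8 (AT5G01920, chr5:359107-361310, plus strand), whose kinase acts on the photosystem II core, had 40.2, 44.6 and 41.2 CPM in fbn6-1 and 35.5, 38.5 and 42.5 CPM in wild type, and the groups overlapped. Its log2 fold change was 0.11 (SE 0.11, 95% interval -0.12 to 0.34, edgeR adjusted p = 0.655), and it was 0.05 without wild-type replicate 2, 0.07 without mutant replicate 2 and 0.18 without wild-type replicate 4. STN8 overlaps AT5G01930 by 230 bases on the opposite strand, a gene with a log2 fold change of -0.18 that was not called. STN7 made up 61.7, 60.4 and 58.1% of the counts of STN7 plus STN8 in fbn6-1, against 66.9, 65.9 and 62.7% in wild type. All 3 mutant shares were lower than all 3 wild-type shares, with a mean difference of -5.13 points (two-sided exact permutation p = 0.1, the smallest possible, and 0.2 after adjustment).

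**Figure D3:**
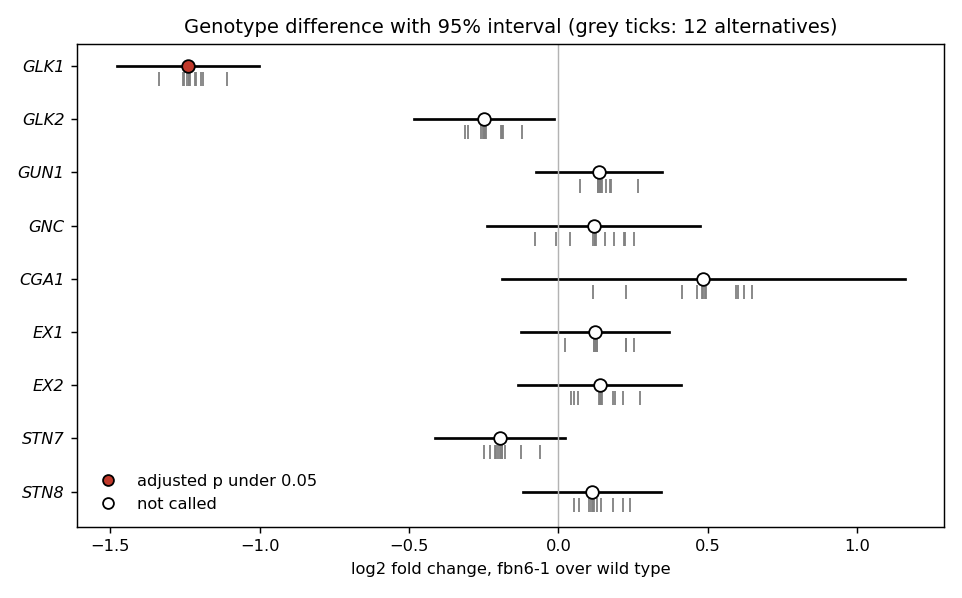
Log2 fold change of fbn6-1 over wild type (horizontal axis) for the 9 genes, with 95% intervals (black lines) and the values under the 12 alternative settings (grey ticks under each line). GLK1 at -1.24 (red) is the called gene; the 95% intervals of the other genes span 0 except that of GLK2, which ends at -0.02.

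Levels of different genes were compared as CPM per kilobase of annotated exon. In fbn6-1 the order by this length-scaled level was STN7 (29.9 ± 2.63), GLK2 (27.8 ± 2.59), GUN1 (25.4 ± 0.334), STN8 (22.2 ± 1.21), GLK1 (15.9 ± 1.91), EX1 (14.7 ± 0.0722), GNC (9.99 ± 2.07), EX2 (9.66 ± 1.04) and CGA1 (1.57 ± 0.560; SD, n = 3 each). In wild type it was GLK1 (37.5 ± 1.17), STN7 (34.2 ± 0.776), GLK2 (33.1 ± 2.58), GUN1 (23.1 ± 1.83), STN8 (20.5 ± 1.84), EX1 (13.5 ± 1.87), GNC (9.24 ± 1.61), EX2 (8.79 ± 0.955) and CGA1 (1.14 ± 0.137). GLK1 thus ranked 5th in fbn6-1 and 1st in wild type, while the other 8 genes kept the same order among themselves. Neighbours whose libraries overlapped were STN7 with GLK2, GLK2 with GUN1, GLK1 with EX1 and GNC with EX2 in fbn6-1, and STN7 with GLK2, GUN1 with STN8 and GNC with EX2 in wild type; these were not separated beyond their spread.

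**Figure D4:**
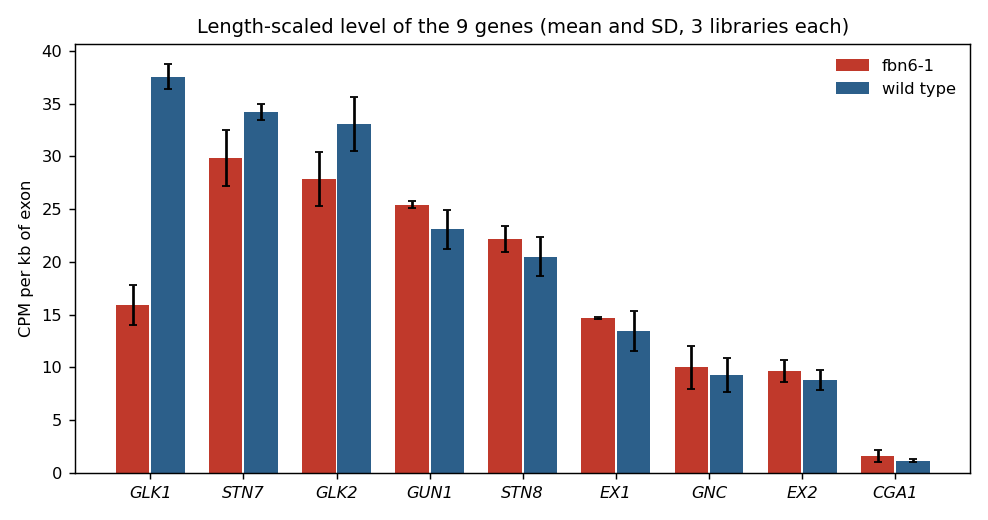
Length-scaled level (CPM per kilobase of exon, vertical axis from 0) of the 9 genes in fbn6-1 (red, left of each pair) and wild type (blue), as mean and SD of 3 libraries, ordered by the wild-type mean. GLK1 stands at 15.9 in fbn6-1 and 37.5 in wild type; the other 8 genes keep their order.

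Of 29 genes of chlorophyll synthesis and light harvesting known to be switched on by GLK factors, 28 were tested. Among these, 4 fell, 0 rose and 24 were not called, where 2.34% of all tested genes were called lower and 1.48% higher. At an unadjusted p under 0.05 in the edgeR test 14 were lower and 1 higher, against 9.80% and 8.04% of all tested genes, and DESeq2 called 4 lower and 0 higher. Their median log2 fold change was -0.21, against 0.00 over all tested genes, and 25 of 28 lay below 0. The 5 leaf markers, none of which is in the list, had a median of -0.28 and 5 of 5 below 0, and their part in the values of the list was not tested. With scaling by library size alone the list median was -0.08 and 20 of 28 lay below 0, while the median of all tested genes moved to 0.13. In 18 of the 28 every mutant library lay below every wild-type library, where 12.1% of all tested genes did so. HEMA1, which encodes the glutamyl-tRNA reductase of tetrapyrrole synthesis, stood at 63.4% of its wild-type level, against 42.4% for GLK1. The antenna genes LHCB4.3 (-0.63, edgeR adjusted p = 0.0169), LHCB2.3 (-0.49, edgeR adjusted p = 0.00839) and LHCB1.4 (-0.40, edgeR adjusted p = 0.0477) were the others that fell. With library-size scaling HEMA1 alone was called, and 1, 2 and 2 members of the list were called lower without mutant replicates 1, 2 and 3. LHCB2.3 was lost without mutant replicates 1 or 2 (edgeR adjusted p = 0.0561 and 0.0535), LHCB4.3 without mutant replicates 1 or 3 (0.0964 and 0.0927) and LHCB1.4 whichever library was left out (0.0509 to 0.231). CAO, which makes chlorophyll b, was not called (-0.31, edgeR adjusted p = 0.0786). Neither were GUN4 (-0.19), GUN5 (-0.26) and CHLD (0.21), genes linked to the magnesium chelatase step.

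The GLK hexamer was found in the 250 bases before 12 of these 29 genes (41.4%), against 10.2% of protein-coding genes, and the G-box before 6 (20.7%, against 6.49%). Because the hexamer is known from promoters of GLK targets, its higher share in this list is no separate result. Several of the windows, among them those of PORC, DVR, LHCB5 and CHLM, take in exon bases of neighbouring genes. The LHCB2 genes are shown because all 3 hold the hexamer at a like distance while only LHCB2.3 was called. Capitals mark CCAATC in each and, in LHCB2.3, CACGTG. The windows are chr3:10255656-10255905 (plus strand) for LHCB2.3, chr2:1824481-1824730 (minus strand) for LHCB2.1 and chr2:1800473-1800722 (minus strand) for LHCB2.2, from RefSeq TAIR10.1, each ending at the base before the annotated start.
LHCB2.3: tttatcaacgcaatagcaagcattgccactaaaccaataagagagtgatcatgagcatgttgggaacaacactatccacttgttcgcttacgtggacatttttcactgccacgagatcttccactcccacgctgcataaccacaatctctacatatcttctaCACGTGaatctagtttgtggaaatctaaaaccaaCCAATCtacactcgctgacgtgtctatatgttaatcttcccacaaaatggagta
LHCB2.1: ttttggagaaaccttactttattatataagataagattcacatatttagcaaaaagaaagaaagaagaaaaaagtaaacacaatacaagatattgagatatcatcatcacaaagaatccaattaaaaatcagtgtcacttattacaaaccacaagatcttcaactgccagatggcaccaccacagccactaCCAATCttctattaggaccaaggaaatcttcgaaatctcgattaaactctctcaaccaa
LHCB2.2: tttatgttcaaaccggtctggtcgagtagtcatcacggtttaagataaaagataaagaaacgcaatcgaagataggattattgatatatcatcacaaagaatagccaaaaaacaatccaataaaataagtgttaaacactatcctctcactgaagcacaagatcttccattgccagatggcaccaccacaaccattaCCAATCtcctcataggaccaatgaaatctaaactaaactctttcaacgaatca
The last base of CCAATC lies 49, 54 and 48 bases before the starts of LHCB2.3, LHCB2.1 and LHCB2.2, and that of the G-box 83 bases before the start of LHCB2.3. LHCB2.3 averaged 538 ± 11.6 CPM in fbn6-1 and 756 ± 34.5 CPM in wild type (SD, n = 3 each). LHCB2.1 (-0.26, edgeR adjusted p = 0.172) and LHCB2.2 (-0.22, edgeR adjusted p = 0.267) were not called, and whether the copies differ in response was not tested. The sequences of the 3 copies were not compared here. Reads that match more than 1 copy could have been assigned to any of them, and the same limit holds for LHCB1.4 and the other LHCB1 genes. LHCB2.3 overlaps AT3G27700 by 595 bases on the opposite strand. HEMA1, LHCB4.3 and LHCB1.4, which also fell, hold no CCAATC or CACGTG in this window.

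Among 12 tested genes linked to GLK, 1 fell, 0 rose and 11 were not called, with a median of -0.06. Of all tested genes, 2.34% were called lower and 1.48% higher. The list mixes partners, regulators and other linked genes, and whether a gene acts before or after GLK was not tested. BBX15, a B-box zinc finger gene, averaged 80.8 ± 5.40 CPM in fbn6-1 and 114 ± 8.99 CPM in wild type (SD, n = 3 each; log2 fold change -0.49, SE 0.10, edgeR adjusted p = 0.0158), a call lost under 6 of the 12 alternatives, among them leaving out mutant replicate 1 or 2 or wild-type replicate 2 or 4 (edgeR adjusted p 0.0648 to 0.101). Without wild-type replicate 3 the list held 3 lower and 1 higher calls. BBX14, a relative of BBX15, had a log2 fold change of -0.89 but was uneven in wild type, with 48.3, 32.9 and 36.9 CPM in fbn6-1 and 77.4, 39.1 and 102 CPM in wild type (edgeR adjusted p = 0.0643). The groups overlapped through wild-type replicate 3, and BBX14 overlaps AT1G68510 by 329 bases on the opposite strand. The genes of the G-box factors that bind GLK proteins, GBF1 (-0.03), GBF2 (0.46) and GBF3 (0.07), were not called, nor was the kinase gene BIN2 (-0.07) or the light-signalling gene HY5 (-0.04).

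**Figure D5:**
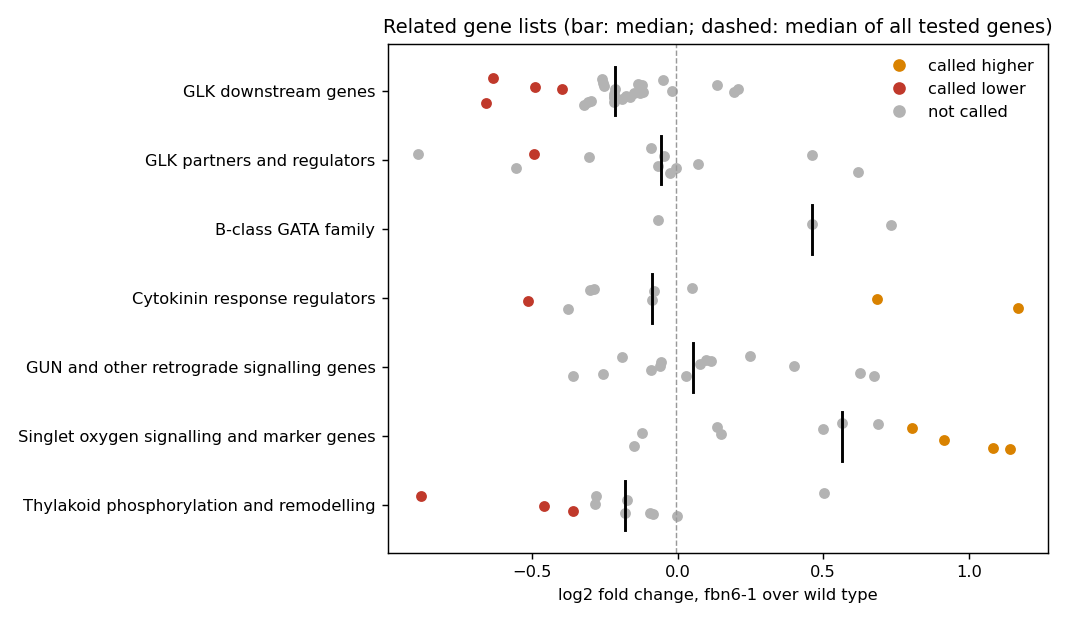
Log2 fold change of fbn6-1 over wild type (horizontal axis) for the tested genes of 7 related lists; each point is a gene (orange called higher, red called lower, grey not called), bars are list medians and the dashed line is the median of all tested genes. The GLK downstream list has its median at -0.21 with 4 red points, and the singlet oxygen list at 0.56 with 4 orange points.

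Of the other B-class GATA genes 3 were tested and 0 were called by edgeR, by DESeq2 or at an unadjusted p under 0.05: GATA17 (0.73), GATA17L (0.46) and GATA15 (-0.07). Their group means lay between 1.61 and 2.65 CPM. Of 9 cytokinin response regulators, 2 rose, 1 fell and 6 were not called, with a median of -0.09, where 1.48% of all tested genes were called higher and 2.34% lower. The called genes were of the A-type class. Outside that class, ARR1 (-0.30), ARR10 (-0.09) and ARR12 (-0.08) were not called. How these genes bear on GNC and CGA1 was not tested. The A-type regulator gene ARR16 averaged 6.52 ± 0.844 CPM in fbn6-1 and 2.89 ± 0.294 CPM in wild type (SD, n = 3 each; log2 fold change 1.17, SE 0.21, edgeR adjusted p = 0.00575). ARR15 rose by 0.68 (SE 0.17, edgeR adjusted p = 0.0435) while ARR7, of the same A-type class, fell by 0.51 (SE 0.12, edgeR adjusted p = 0.0313). The ARR15 and ARR7 calls were each lost under 5 of the 12 alternatives. ARR15 was lost without each of the mutant libraries and without wild-type replicate 2 (edgeR adjusted p 0.0901 to 0.187), and ARR7 without mutant replicate 2 or 3 or wild-type replicate 4 (0.129 to 0.137).

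Around GUN1, 14 genes of retrograde signalling were tested and 0 were called, with a median of 0.05 and a range of -0.36 to 0.67. At an unadjusted p under 0.05 in the edgeR test 3 were higher and 2 lower, against 8.04% and 9.80% of all tested genes, DESeq2 called 0, and without wild-type replicate 3 edgeR called 1 higher and 1 lower. They included the ferrochelatase genes FC1 (0.40) and FC2 (-0.09) and SAL1 (-0.36), a phosphatase gene of the phosphonucleotide signal. GUN4 and GUN5 are also in the list of genes switched on by GLK factors. GUN5 (unadjusted p = 0.0177, edgeR test) is counted as lower at that p in both lists. ABI4 had 0 counts in all 6 libraries, which allows up to 0.225 to 0.359 CPM per library. Around EX1 and EX2, 11 of 15 singlet oxygen genes were tested. OXI1, BAP1, AATP1 and FLOT3 had too few counts to be tested. Their mean CPM in fbn6-1 and wild type were 0.995 and 0.372 (OXI1), 1.21 and 0.727 (BAP1), 0.111 and 0.0879 (AATP1), and 0.731 and 0.982 (FLOT3). Of the 11 tested, 4 rose, 0 fell and 7 were not called, with a median of 0.56. Over all tested genes, 1.48% were called higher and 2.34% lower. The 4 were WRKY33, WRKY40, ERF5 and ERF6, stress transcription factor genes that also respond to other stimuli. FLU, whose loss causes singlet oxygen release, was not called (0.14), and neither were MBS1 (0.69, edgeR adjusted p = 0.106), which overlaps AT3G02780 by 712 bases on the opposite strand, and ZAT12 (0.50). Without mutant replicate 2 the list held 0 calls, without wild-type replicate 2 it held 1, and without mutant replicate 1 it held 2.

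Of 11 genes of thylakoid phosphorylation and remodelling around STN7 and STN8, 3 fell, 0 rose and 8 were not called. Over all tested genes, 2.34% were called lower and 1.48% higher. The list median was -0.18, with 10 of 11 below 0. In 7 of the 11 every mutant library lay below every wild-type library, and in 1 above, against 12.1% and 10.9% of all tested genes. The 5 leaf markers had a median of -0.28 and 5 of 5 below 0, and their part in these values was not tested. CaS, a thylakoid calcium-sensing protein known as a phosphorylation target of STN8, averaged 163 ± 5.11 CPM in fbn6-1 and 300.4 ± 12.5 CPM in wild type (SD, n = 3 each). Its log2 fold change of -0.88 (SE 0.09, edgeR adjusted p = 9.20e-05) was called under all 12 alternatives. CURT1B (-0.46, edgeR adjusted p = 0.0118) and CURT1A (-0.36, edgeR adjusted p = 0.0461), genes of proteins that bend grana margins, fell as well, but their calls were lost under 5 and 8 of the 12 alternatives. CURT1B was lost without each of the mutant libraries (edgeR adjusted p 0.0529 to 0.0867), and CURT1A without each of the mutant libraries and without wild-type replicate 2 or 4 (0.0866 to 0.202). The phosphatase genes that oppose the kinases, TAP38 (-0.08) for STN7 and PBCP (-0.10) for STN8, were not called. Further list and marker genes whose values are given here also overlap another gene. On the opposite strand these are GUN4, CAO, GBF1, GBF3, ARR1, FC1, FLU, WRKY33, WRKY40, TAP38, RCA, EXPA7, CASP1 and PYK10. CHLD, BIN2, CA1, SAG21 and FC1 overlap a gene on the same strand. The values of all these genes are uncertain to that extent.

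The genes most like each of the 9 over the 6 libraries were sought by Pearson's r of log2 CPM among genes that averaged 5 CPM or more. All share these libraries and their depth, and r is a description. Genotype means were not removed first, so a large genotype difference in both genes gives a high r by itself. GLK1 was most like YSL1, a metal-nicotianamine transporter gene (r = 0.998, log2 fold change -1.54), and FSD1, the iron superoxide dismutase gene (r = 0.998, -5.40), both called lower, and 129 genes reached an r of 0.95 with it. GLK2 was most like AT1G74840 (r = 0.996) and AT3G59940 (r = 0.993), and GLK1 was not among its 2 nearest genes. GUN1 was most like MEE40 and CARA, GNC like TL29 and MUG7, CGA1 like SNL3 and ARF11, EX1 like ABCB19 and RAD50, EX2 like BMY2 and AT3G04830, STN7 like AT3G07470 and AT3G04890, and STN8 like RDUF1 and MKK4, with r between 0.972 and 0.995. Apart from YSL1 and FSD1 none of the genes named in this comparison was called, and none of the 9 was among the 2 nearest of another.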

How the data were processed

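The authors deposited raw counts per gene for 6 libraries of total RNA. TAIR10 is the genome build and featureCounts, TopHat2 2.1.1, Trimmomatic and FastQC are the programs, per the submitters' processing notes; not given in the sources used here are their settings, the annotation release, strand use and the handling of reads with several matches. Groups came from the sample labels. Tests used edgeR 4.0.16 under R 4.3.3 (quasi-likelihood test, two-sided, TMM factors, filterByExpr with a minimum count of 10 and a minimum total of 15), and p-values were adjusted by Benjamini-Hochberg over 16584 genes. SE is the log2 fold change over the root of the F statistic. CPM are counts scaled to the TMM-adjusted library size. Lengths, names, overlaps and sequences came from RefSeq TAIR10.1, in which 119 of 124 listed genes carry the listed symbol. CCAATC and CACGTG were searched on both strands, without a test.

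The 9 genes and all lists were chosen with earlier results of these data known. Named beside them are FBN6, from each list the called genes of smallest adjusted p, at most 3 a direction, genes whose role is described, and the 2 nearest genes of each by r, with a prior count of 2 in log2 CPM. Overlap partners, the LHCB2 copies, LHCB1.4 and ERF6 were named after their values were seen. Intervals of shares are 95% Clopper-Pearson intervals. The 12 alternatives were RLE factors, library size only, DESeq2 1.42.0, no low-count filter, organelle genes left out, a replicate block, and each library left out in turn. On simulated data with 200 of 16584 genes changed, the test recovered 76% at an absolute log2 fold change of 1 and 96% at 2, and 14 of 186 calls were false.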

Additional observations from a re-analysis of the deposited data

How the results depend on the processing

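GLK1 was called lower, and no other gene of the 9, under all 12 alternatives. Its log2 fold change lay between -1.34 and -1.19 with each library left out, at -1.11 with library size only and at -1.22 with the replicate block (adjusted p = 0.000997, edgeR). Counts of calls over all genes moved more: 633 became 1232 with no low-count filter, and 272 to 1238 with a library left out, lowest without fbn6-1 replicate 2 and highest without wild-type replicate 3. Library size only gave 508 higher and 195 lower calls, 72.3% higher against 38.7%. The GNC log2 fold change lay between -0.077 and 0.224 with a library left out: it reversed to -0.0069 without wild-type replicate 3 and to -0.077 without fbn6-1 replicate 1. The EX1 share difference, 0.00749 points, lay between -1.01 and 1.42 with a library left out and reversed without wild-type replicate 2 (-1.01) or 3 (-0.388) and fbn6-1 replicate 2 (-0.728) or 3 (-0.610). The GLK1 share difference stayed between -18.1 and -15.5 points and that of STN7 between -6.38 and -4.15. The cause was not tested.

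Replicate numbers 2 and 3 occur in both genotypes, but the labels tie no batch to a number. The r of deviations was -0.0736 and 0.112 between same-numbered libraries across 9910 genes, against -0.286 to 0.212 between unlike numbers; 2 shared numbers do not settle a pairing, and none was assumed. With that number as a block the calls over all genes were 191, the GLK downstream list held 0 calls, HEMA1 (adjusted p = 0.108, edgeR) and ARR16 (adjusted p = 0.0770, edgeR) were lost, and GLK1 and CaS were called.

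CGA1, with 15 to 48 counts, had the fewest counts of the 9. The shares were compared without a block.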
